A study of Homo sapiens with 9 samples.

Results

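HEK293T is an established line from human embryonic kidney. Of its 71597 merged regions of accessible chromatin, 4925 (6.88%) were held by the peak lists of all 3 IGF2BP knockouts and by no peak of the control list. They were chosen by presence: the peaks of 4 lists were pooled, peaks sharing at least 1 bp were merged into a region, and a region was kept if it overlapped a peak of each knockout list and none of the control. Presence and absence are therefore the rule and not a finding, and the lists hold no height, score or p-value with which to set the control against the knockouts. What could be described independently of the rule was where these regions lie and which genes and gene-start sequences they cover. Peak widths and the overlap of the 3 knockout peaks come from the calls that the rule used, and are given as a description only.

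IGF2BP1, IGF2BP2 and IGF2BP3 are RNA-binding proteins that attach to messenger RNAs, among them N6-methyladenosine-marked ones, and are known for stabilising them, with IGF2 and MYC among the named targets. They act in the cytoplasm for the most part and are not chromatin proteins. ATAC-seq cuts DNA with the Tn5 transposase where nucleosomes and other proteins leave it free, so a peak marks an accessible stretch such as a promoter, an enhancer or an insulator.

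The series title sets the work within innate immune signalling and leukemia stem cells, but all libraries came from HEK293T cells. The control carried a non-targeting guide RNA (labelled WT). Batches 2 and 3 gave 1 library each to every group, and batch 1 added a further one to the IGF2BP1 knockout alone, so this group had 3 libraries and each other group 2. Knockouts were made by transient transfection of non-integrating plasmids carrying 3 guides and GFP, and sorted single GFP-positive cells were grown out. For each gene 1 clone was used, whose own features cannot be told apart from the knockout, and no group received a further treatment. Each group has 1 deposited list with no value per library, so no spread between replicates and no test could be had. Read depth is unknown, and every interval below is a 95% interval for counting error over regions, which are not replicates and are not independent of their neighbours. The knockout lists were 1.3, 1.54 and 1.12 times as long as the control list for IGF2BP1, IGF2BP2 and IGF2BP3, and a longer list holds more regions that the control lacks. The part of list length in the values below was not tested beyond the lists of equal length given beside them. Peaks at the ends of housekeeping genes were present in all groups, for 31 of 32 genes in the IGF2BP1 knockout list and for 32 of 32 in the other lists.

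Among the 35116 gene-start windows of RefSeq (GRCh38.p14; 250 bases before to 50 bases after a start, 27305 genes), 313 windows of 281 genes (0.891%) overlapped 1 of 260 such regions. The 6 windows below belong to the protein-coding genes whose regions were widest, ranked by the narrowest of the 3 knockout peaks. They are shown because they range from a CpG-poor start (CDA) to very CpG-dense ones (ORAI2). Capitals mark CpG dinucleotides, and each sequence runs 5′ to 3′ along its gene.
CDA: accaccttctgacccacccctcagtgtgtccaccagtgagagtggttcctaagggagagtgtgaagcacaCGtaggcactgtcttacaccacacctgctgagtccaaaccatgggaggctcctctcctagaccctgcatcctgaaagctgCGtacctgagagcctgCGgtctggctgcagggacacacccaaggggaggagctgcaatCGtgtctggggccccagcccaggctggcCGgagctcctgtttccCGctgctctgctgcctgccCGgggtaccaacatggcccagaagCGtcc
FAM131B: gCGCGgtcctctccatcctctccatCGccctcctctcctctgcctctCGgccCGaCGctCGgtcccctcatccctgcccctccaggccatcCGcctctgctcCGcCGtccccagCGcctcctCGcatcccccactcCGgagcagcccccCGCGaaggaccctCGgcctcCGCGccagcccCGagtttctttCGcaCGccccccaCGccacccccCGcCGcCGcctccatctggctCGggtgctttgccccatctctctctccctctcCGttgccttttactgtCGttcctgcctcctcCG
SLC18A3: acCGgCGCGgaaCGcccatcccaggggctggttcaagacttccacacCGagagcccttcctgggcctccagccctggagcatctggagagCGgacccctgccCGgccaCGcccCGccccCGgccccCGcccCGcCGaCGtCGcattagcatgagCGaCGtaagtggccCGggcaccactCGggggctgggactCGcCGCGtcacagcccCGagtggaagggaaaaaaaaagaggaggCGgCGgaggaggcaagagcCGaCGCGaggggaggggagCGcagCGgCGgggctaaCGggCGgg
THBS1: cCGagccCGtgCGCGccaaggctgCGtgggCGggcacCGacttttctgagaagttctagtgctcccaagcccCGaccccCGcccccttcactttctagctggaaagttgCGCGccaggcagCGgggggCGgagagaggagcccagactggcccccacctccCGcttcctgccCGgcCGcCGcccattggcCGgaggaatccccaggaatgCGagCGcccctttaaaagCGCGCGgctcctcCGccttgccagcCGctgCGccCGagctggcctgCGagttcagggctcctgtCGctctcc
LRRC3B: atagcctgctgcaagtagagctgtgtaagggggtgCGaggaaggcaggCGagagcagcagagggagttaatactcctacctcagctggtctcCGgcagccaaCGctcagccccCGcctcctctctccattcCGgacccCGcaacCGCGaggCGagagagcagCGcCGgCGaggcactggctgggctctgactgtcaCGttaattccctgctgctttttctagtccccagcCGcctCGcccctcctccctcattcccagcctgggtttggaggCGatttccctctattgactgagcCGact
ORAI2: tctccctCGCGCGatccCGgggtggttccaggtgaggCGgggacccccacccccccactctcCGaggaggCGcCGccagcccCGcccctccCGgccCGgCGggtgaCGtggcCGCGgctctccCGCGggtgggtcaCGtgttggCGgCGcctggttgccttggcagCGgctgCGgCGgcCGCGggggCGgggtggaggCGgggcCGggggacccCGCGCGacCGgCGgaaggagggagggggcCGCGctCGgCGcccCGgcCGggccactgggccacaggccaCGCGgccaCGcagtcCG

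The CDA window (chr1:20588847-20589146, plus strand) held 8 CpGs, a GC content of 62% and a CpG observed-to-expected ratio of 0.28. CDA encodes cytidine deaminase of the pyrimidine salvage pathway. The FAM131B window (chr7:143362031-143362330, minus strand) held 29 CpGs with a ratio of 0.99. SLC18A3, the vesicular acetylcholine transporter, has its window at chr10:49610060-49610359 (plus strand), with 33 CpGs and a ratio of 0.85. The window of THBS1, which encodes the secreted matrix protein thrombospondin-1, lies at chr15:39580829-39581128 (plus strand) and held 29 CpGs with a ratio of 0.80. LRRC3B, a leucine-rich repeat membrane protein gene, has its window at chr3:26622522-26622821 (plus strand), with 18 CpGs and a ratio of 0.63. The window of ORAI2, a subunit of store-operated calcium channels, at chr7:102433325-102433624 (plus strand) was the densest of the 6, with 43 CpGs, a GC content of 81.7% and a ratio of 0.86. All 300 bases of each window lay under all 3 knockout peaks, except at LRRC3B, where 276 did.

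The gene-start windows covered by these regions were less CpG-dense than those covered in all 4 lists. Their median CpG ratio was 0.50 (interval 0.455 to 0.582), against 0.84 for 16368 windows under regions of all 4 lists, and 41.2% (35.9 to 46.7) of them had both a GC content above 50% and a ratio above 0.6, against 83.9% (83.3 to 84.4). The intervals did not overlap. Regions held by 3 lists and missing only from the IGF2BP3 knockout, the class closest in size, had a like median of 0.478 (0.39 to 0.589) and 39.4% CpG-dense windows. Windows of regions missing only from the IGF2BP2 knockout were far denser, with a median of 0.878 and 80.5%. CpG ratio therefore separated these windows from the ones shared by all lists and did not set them apart from every other class found in 3 lists. Windows under no peak of any list had a median of 0.24 and 11.8%.

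The AP-1 element was searched as TGANTCA, with any base in the middle. This is wider than the site FOS and JUN dimers are best known to bind, which has C or G there. The share of that narrower form was not computed. The element TGANTCA was in 47 of the 313 windows, or 15.0% (11.5 to 19.4). It was in 7.71% (7.43 to 7.99) of all windows, in 3.81% of windows under regions of all 4 lists, in 11.0% of windows under no peak and in 5.91% (3.41 to 10.0) of windows missing only from the IGF2BP3 knockout. Windows missing only from the IGF2BP1 knockout had a like share on few windows, 9 of 66 or 13.6% (7.34 to 23.9). Because the element has no CpG and is more frequent in AT-rich DNA, windows were also split by GC content, a split made after the shares were seen. Below 50% GC it was in 23 of 91 windows, or 25.3% (17.5 to 35.1), against 13.5% (12.8 to 14.1) of all windows of that content. From 50 to 65% GC it was in 15.7% (10.1 to 23.4) against 7.51% (7.07 to 7.98), and at 65% or more in 6 of 107, or 5.61% (2.6 to 11.7), against 2.63% (2.35 to 2.93). The share was thus higher than that of all windows in each band, and only in the band above 65% did the intervals overlap. In every band, however, its interval overlapped those of the 3 classes missing only from 1 knockout. Windows missing only from the IGF2BP3 knockout had 11.1% (5.74 to 20.4) below 50% GC and 6.35% (2.5 to 15.2) from 50 to 65%. Windows missing only from the IGF2BP1 knockout had 3 of 10, 3 of 28 and 3 of 28 in the 3 bands. Counted per region rather than per window, 44 of the 260 regions had the element in a window they overlapped, 16.9% (12.9 to 21.95). That compared with 6.11% (5.7 to 6.55) of the 12244 regions of any class on a window. It was 15.4% (8.01 to 27.5) of those missing only from IGF2BP1, 6.29% (3.45 to 11.2) from IGF2BP3 and 5.17% (2.39 to 10.8) from IGF2BP2. With each list limited to its widest peaks, as many as the control list has, a setting also added after the shares were seen, the element was in 23 of 187 windows, or 12.3% (8.34 to 17.8). That interval still lay above the 3.77% of windows in all 4 lists and overlapped those of windows missing only from the IGF2BP3 (5.88%, 3.13 to 10.8) or IGF2BP1 knockout (7.96%, 4.25 to 14.4).

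The element and up to 10 bases on either side are shown for the 6 protein-coding genes with the widest such regions, with the element in capitals. They were chosen by width after the share had been seen.
PTN: agggcgtaatTGAGTCAa
NIBAN2, upstream copy: caccgcaggcTGATTCAcagaaggctc
NIBAN2, copy nearer the start: gcccaggctcTGAGTCAccagctggtg
C4orf51: tgtgaactgtTGAGTCAcaaagtttgg
ZNF83: ccagggctttTGAATCAtgcctcatac
SPMIP5: gaaagaaggaTGACTCAccttccccag
RCAN1: atgcaggactTGACTCAggaatttgct

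PTN, which encodes the growth factor pleiotrophin, had the element 43 bases into the transcript at chr7:137343684-137343701 (minus strand), under peaks of 1052, 1093 and 914 bp (IGF2BP1, IGF2BP2 and IGF2BP3, the order kept throughout) and 110 kb from the nearest control peak. NIBAN2 had 2 copies on the minus strand, 197 and 134 bases before the start (chr9:127579212-127579238 and chr9:127579149-127579175), under peaks of 809, 1044 and 1201 bp. The copy at C4orf51 (chr4:145680080-145680106, plus strand) lay 56 bases before the start under peaks of 995, 782 and 921 bp. At ZNF83, a zinc finger gene, the copy (chr19:52690701-52690727, minus strand) lay 221 bases upstream under peaks of 1411, 713 and 1050 bp. At SPMIP5 it lay 211 bases upstream (chr10:116670477-116670503, minus strand) under peaks of 674, 990 and 674 bp. At RCAN1, an inhibitor of the phosphatase calcineurin, it lay 116 bases upstream (chr21:34526922-34526948, minus strand) under peaks of 889, 666 and 661 bp. All 7 copies lay inside the peaks of all 3 knockouts. The copy at ZNF83 and the upstream copy at NIBAN2 have A or T as the middle base, and the others C or G. The shares above count the element anywhere in a window that a region overlaps, so a counted copy need not lie under a peak. At CRYBA2, for example, the copy with its flanks (chr2:218993492-218993518) lay outside the region (chr2:218993542-218994359). The share of windows with a copy inside all 3 peaks is not given here. A match of letters describes the sequence and does not show that a factor was bound.

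Of the 13 other motifs searched on both strands, the ETS site CCGGAAG differed from all windows in the opposite direction. It was in 11 of 313 windows or 3.51% (1.97 to 6.18), against 10.3% (9.95 to 10.6) of all windows and 18.1% of windows in all 4 lists. Windows under no peak had a like share, 3.21% (2.95 to 3.48). In windows missing only from the IGF2BP3 or the IGF2BP1 knockout it was 8.37% (5.29 to 13.0) and 9.09% (4.23 to 18.4), intervals that overlap. In windows missing only from the IGF2BP2 knockout it was 10.1% (6.29 to 15.7), an interval that does not. The site holds a CpG, and its share was not split by GC or CpG content. The GC box GGGCGG, bound by SP-family factors, was in 43.5% (38.1 to 49.0), near the 45.0% of all windows and below the 72.5% of windows in all 4 lists. Shares for the other motifs had intervals that held the share of all windows: TATAAA 10.9% against 11.5%, CCAAT 31.3% against 34.6%, the E-box CANNTG 69.0% against 68.7%, the TEAD site GGAATG 15.0% against 14.0%, the GATA site AGATAA 10.5% against 10.3%, the SOX site ACAAAG 18.5% against 16.1%, and the cAMP response element 1.6% against 1.85%. The interferon-stimulated response element was in 3.51% against 3.57%, NF-kappaB in 1 window (0.319% against 0.191%), NRF1 in 1 window (0.319% against 1.24%), and the CTCF core in 3.19% (1.74 to 5.78) against 1.77%. The short E-box and CCAAT letters can overlap several of the other motifs.

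**Figure D1:**
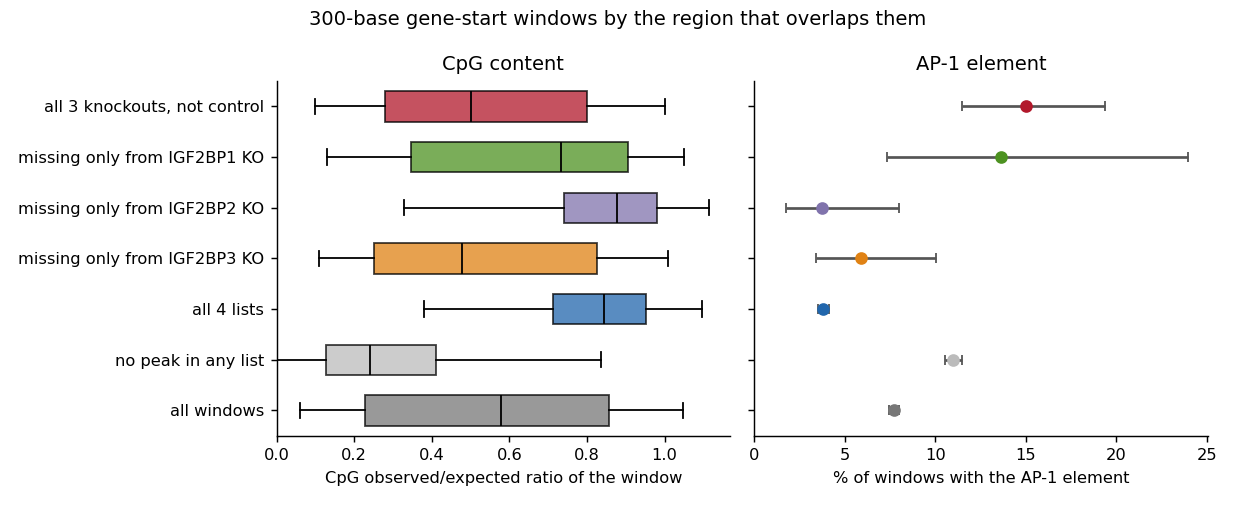
CpG observed-to-expected ratio (left; box from lower to upper quartile with the median, whiskers from the 5th to the 95th percentile) and percentage of windows with the AP-1 element TGANTCA (right; bars are 95% Wilson intervals) for 300-base gene-start windows, grouped by the class of region over them. Windows under regions of all 3 knockouts and not the control had a median ratio of 0.50, against 0.84 in all 4 lists, and the highest AP-1 share plotted, 15.0%, with an interval that overlaps the wide one of regions missing only from the IGF2BP1 knockout.

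Since the rule keeps only regions in which peaks of all 3 knockouts merged, their overlap is largely fixed by it. Of the 4925 regions, 4883 had exactly 1 peak of each knockout, and in 4912 (99.7%) at least 1 base was common to 3 peaks, 1 of each list. The centres of paired peaks were a median of 58 bp (IGF2BP1 and IGF2BP2), 65.5 bp (IGF2BP1 and IGF2BP3) and 62 bp (IGF2BP2 and IGF2BP3) apart, against 49.5, 54 and 52.5 bp in regions of all 4 lists. Widths of paired peaks went together less than in regions of all 4 lists: Spearman's rank correlation across the 4925 regions was 0.56, 0.50 and 0.49 for the same pairs, against 0.83, 0.82 and 0.83 across 29686, over peaks that share a list and its depth. The stretch common to all 3 had a median of 472 bp, 60.4% of the region, against 743 bp and 72.7% in regions of all 4 lists. The median peak width was 722 bp (715 to 729) in the IGF2BP1 list, against 835 bp over all regions and 990 bp for regions of all 4 lists. It was 606 bp (598 to 615) in the IGF2BP2 list, against 653 and 856 bp, and 566 bp (557 to 573) in the IGF2BP3 list, against 716 and 848 bp. Other classes held by 3 lists were about as narrow or narrower: regions missing only from IGF2BP3 had medians of 695 and 548 bp in the IGF2BP1 and IGF2BP2 lists, and regions missing only from IGF2BP1 had 528 and 518 bp in the IGF2BP2 and IGF2BP3 lists. Regions missing only from IGF2BP2 had 721.5 and 573.5 bp in the IGF2BP1 and IGF2BP3 lists. The widest of the 3 peaks was that of the IGF2BP1 knockout in 63.1% of regions, and the narrowest was that of the IGF2BP3 knockout in 52.8%.

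**Figure D2:**
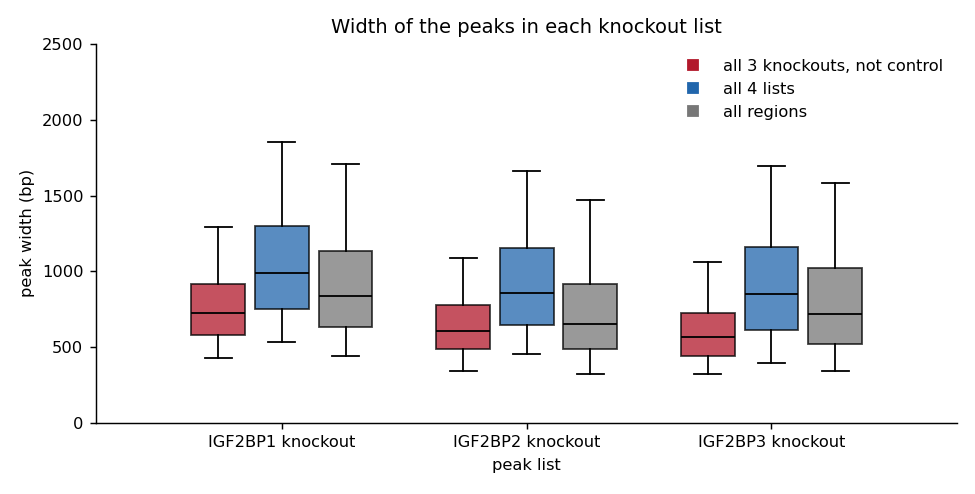
Peak width in bp in each knockout list for regions of all 3 knockouts and not the control, for regions of all 4 lists, and for all regions (box from lower to upper quartile with the median, whiskers from the 5th to the 95th percentile). Of the 3 groups plotted the first has the lowest median in each list, 722, 606 and 566 bp; the other classes held by 3 lists are not plotted.

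Of all 32764 regions without a control peak, 18717 (57.1%) were in 1 knockout list, 9122 (27.8%) in 2 and 4925 (15.0%) in all 3. As the lists share 1 control, the overlap of the 3 knockouts is not independent evidence from 3 comparisons.

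Few regions had a control peak close by. This distance does not show how near the control came to a peak at the region itself, since the lists hold no scores. With each list limited to its widest peaks, as many as the control list has, 2295 of the 4925 (46.6%) were kept. The nearest control peak was a median of 25.3 kb away (quartiles 10.2 and 56.6 kb), and 109 regions (2.21%) were under 1 kb from one. Regions missing only from another list lay nearer to a peak of that list, at medians of 12.2 kb (IGF2BP1), 11.0 kb (IGF2BP2) and 18.8 kb (IGF2BP3), and those lists are longer than the control. Just inside the rule were chr14:34179853-34180979, with a control peak 0.018 kb away, chr15:62066670-62067459 at C2CD4A, 0.121 kb away, and chr16:727800-728797 in HAGHL, 0.145 kb away. Just outside it were chr7:142939562-142940119 at LLCFC1, where the control peak shared 214 bp with the knockout peaks, and chr15:96316882-96317514 in NR2F2-AS1 and chr15:81995391-81995895 in LOC105370922, with 227 and 234 bp. No region of all 4 lists rested on 100 shared bases or fewer.

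Ranked by the narrowest of the 3 knockout peaks, the 10 widest regions at least 1 kb from a control peak were mostly away from gene starts. The first 4 lay 196 kb from RYBP (a Polycomb component gene), in RAB37, 11.0 kb from the olfactory receptor gene OR6C76 and 108 kb from RPS23. The fifth, chr15:98896093-98897702, was inside IGF1R, the type 1 insulin-like growth factor receptor, with peaks of 1332, 1328 and 1390 bp and a control peak 6.74 kb away. The 3 widths there differed little between lists. The sixth, chr3:137770617-137772167, covered the start of the lncRNA LINC01210, 4.28 kb from the neural transcription factor gene SOX14, with peaks of 1342, 1384 and 1316 bp. Its nearest control peak was 199 kb away. The next, chr21:16837392-16838950, had peaks of 1414, 1358 and 1291 bp and no protein-coding gene within 500 kb. It lay 674 kb from CXADR, the coxsackievirus and adenovirus receptor. CNTNAP2, a neurexin-family adhesion gene, held chr7:146682548-146684128 with peaks of 1550, 1288 and 1443 bp. The last 2 were chr18:22492762-22494245, 74.8 kb from CTAGE1, with peaks of 1417, 1274 and 1313 bp, and chr4:95499266-95500799 inside the netrin receptor gene UNC5C, with peaks of 1376, 1520 and 1274 bp. Of the 10, 1 overlapped a start window of the RefSeq table, that of LINC01210.

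An end of a gene means a position within 1 kb of either of its limits. At an end of a protein-coding gene lay 301 regions, 6.13% (5.49 to 6.83), against 19.2% of all regions and 6.55% (5.79 to 7.39) of those missing only from IGF2BP3. They reached 326 of the 20037 protein-coding genes (1.63%). Of the 326 genes, 98 had a control peak at one of their ends all the same and 228 had none. The rule itself leaves out regions with a control peak. The share of all protein-coding genes with a control peak at an end was not computed, so these counts are a description only. For 258 of them the start site was known, and at 159 of these a region lay within 1 kb of it, so 99 genes had theirs elsewhere, such as the far end of the gene. Only 6 genes had 2 or more.

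The 10 widest of these regions included several at the annotated starts. CDA had peaks of 1359, 1406 and 1247 bp at chr1:20588710-20590153, 12.8 kb from a control peak. TMPRSS2, a transmembrane serine protease known for cleaving viral spike proteins, had peaks of 1422, 1194 and 1251 bp at chr21:41507238-41508659, 46.1 kb from a control peak. The region at SLC18A3 (chr10:49609414-49610855; 1345, 1176 and 1362 bp) also lies in CHAT, the choline acetyltransferase gene, since the transporter gene sits inside it, and a control peak was 2.04 kb away. THBS1 had peaks of 1385, 1446 and 1143 bp at chr15:39579882-39581327, and no control peak within 201 kb. These 4 were picked for their width, and they differed in how far the nearest control peak was.

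LRRC3B (chr3:26622435-26623799) had peaks of 1365, 1139 and 1155 bp, 88.2 kb from a control peak. ADAM12, a membrane metalloprotease gene, had its region 0.261 kb from the start (chr10:126386845-126388215; 1135, 1303 and 1111 bp), and the nearest control peak was 116 kb away. ORAI2 (chr7:102432917-102434584; 1668, 1105 and 1219 bp) was widest in the IGF2BP1 list. SLC1A2, the main glial glutamate transporter gene, had peaks of 1095, 1446 and 1771 bp at chr11:35418669-35420439, the reverse of the order of the medians. TNFRSF10D, a decoy receptor for TRAIL, on chromosome 8, had peaks of 1614, 1081 and 1553 bp but a control peak 0.425 kb away. DOCK10 had peaks of 1420, 1056 and 1688 bp at chr2:225041368-225043055.

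Gene lists on the biology of the study were read against the genome: 1.63% of protein-coding genes had a region at an end and 8.4% overlapped one. Among 89 genes of innate immune sensing and interferon signalling, 1 had a region at an end (1.12%, 0.199 to 6.09) and 7 overlapped one (7.87%, 3.86 to 15.4), both near the background. The one at an end was at IFI16, a nuclear DNA sensor gene (chr1:158998465-158999184; 586, 511 and 571 bp). It lay 0.792 kb outside the gene's annotated limit and 9.81 kb from the start site in the RefSeq table, and the nearest control peak was 133 kb away. Among 57 interferon-stimulated effector genes, APOBEC3A, a cytidine deaminase of antiviral defence, had a region at an end (chr22:38963282-38963987; 706, 411 and 408 bp). SP110, a nuclear body protein gene, and DDX60, a helicase gene, overlapped one (3.51%, 0.968 to 11.9), at chr2:230219612-230220565 (954, 577 and 560 bp) and chr4:168304575-168305333 (741, 649 and 396 bp). All 3 were widest in the IGF2BP1 list, as were 63.1% of all 4925 regions.

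Of 43 genes of the IGF2BP family, its target messenger RNAs and the insulin-like growth factor axis, none had a region at an end and 6 overlapped one (14.0%, 6.56 to 27.3), an interval that holds the background of 8.4%. IGF1, the growth factor gene, had a region 0.024 kb from a start site inside the gene (chr12:102478574-102479459; 846, 886 and 673 bp), 165 kb from a control peak. IGF1R held 2, the second at chr15:98667870-98669357 with peaks of 789, 1424 and 1062 bp. IGF2BP2 itself held chr3:185660248-185660959, with peaks of 712, 550 and 629 bp, 73.1 kb from a control peak and 160 kb from the gene's start. IGF2R, the receptor that clears IGF2, held chr6:160088168-160088828 (651, 493 and 408 bp), and FOXK1, a forkhead factor gene, held chr7:4700751-4701334 (460, 444 and 572 bp). The region in MYC, on chromosome 8, had peaks of 1154, 441 and 1236 bp and a control peak 1.28 kb away. None of 23 genes of the N6-methyladenosine machinery had a region at an end or inside, which with 23 genes allows a share of up to 14.3% (Wilson).

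Transcription factor genes of the neural lineage had 4 of 67 with a region at an end (5.97%, 2.35 to 14.4). This was above the background of 1.63%, with an interval that does not hold it. The list is among several chosen with earlier results known, and other classes held by 3 lists were not counted at these genes. A region overlapped 7 of the 67 (10.4%, 5.15 to 20.0), an interval that holds the background of 8.4%. ZIC1 had peaks of 1087, 1095 and 889 bp over its start (chr3:147408787-147409963), 46.7 kb from a control peak. RFX4 had peaks of 1052, 927 and 840 bp (chr12:106583400-106584478), 0.396 kb into the gene and 105 kb from a control peak, and a further region inside the gene. At NEUROG3 (chr10:69572877-69574191; 1276, 869 and 957 bp) and ISL2 (chr15:76337381-76338568; 875, 1020 and 1067 bp), however, a control peak stood 0.168 and 0.406 kb away, so 2 of the 4 depended on the exact limits of a peak. Of 35 kidney developmental factor genes, 1 had a region at an end (2.86%, 0.506 to 14.5) and 3 overlapped one (8.57%, 2.96 to 22.4). Both intervals hold the background. TFAP2A had its region over its start (chr6:10419001-10419915; 819, 915 and 757 bp). SALL4 and EYA1 held one inside, at chr20:51797321-51797893 (500, 543 and 516 bp) and on chromosome 8 (840, 879 and 717 bp). Of 48 blood stem cell and leukaemia genes, 1 had a region at an end (2.08%, 0.369 to 10.9). This was LMO2, with a region 0.252 kb beyond its end (chr11:33857849-33858324; 476, 377 and 415 bp). A region overlapped 9 of the 48 (18.8%, 10.2 to 31.9), an interval that does not hold the background of 8.4%. The list had a median gene length of 70.3 kb, and the interval holds the 14.3% of all protein-coding genes of 50 to 200 kb.

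Neuronal adhesion and axon guidance genes often held a region inside, at a share near that of other genes of their length. Of 103 such genes, 40 overlapped a region (38.8%, 30.0 to 48.5) against 8.4% of all protein-coding genes, and 1, the netrin receptor gene UNC5B (chr10:71303053-71303717; 657, 664 and 456 bp), had one at an end (0.971%). Their median length was 352 kb, against 24.1 kb for all protein-coding genes, and the share of genes with a region inside moved with gene length across the genome: 1.35% under 10 kb, 4.06% from 10 to 50 kb, 14.3% from 50 to 200 kb, 37.5% (34.6 to 40.4) from 200 to 500 kb and 56.2% at 500 kb or more. The 38.8% of the list is near the share of genes of 200 to 500 kb, its own length class by median. The same held for the density among regions: 2.31% of all regions inside genes under 10 kb were of this class, and 8.25% of those inside genes of 500 kb or more. A rise was also seen for regions held by 3 lists in other combinations, with 156 of 3331 and 405 of 4738 there. Of regions held by exactly 3 lists, this class made up 33.0% in genes under 10 kb and 49.1% in those of 500 kb or more.

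By median distance to a start and by overlap with genes, the regions lay away from genes more than most other classes. At gene ends and gene starts they were like some of them. Within 1 kb of an end of any gene lay 13.7% (12.8 to 14.7) of them, against 27.1% of all regions and 48.6% of regions in all 4 lists. That was like regions missing only from the IGF2BP3 list (13.2%, 12.2 to 14.4) and regions of the control list alone (14.9%, 13.1 to 16.8). It was below regions missing only from IGF2BP1 (18.0%) or IGF2BP2 (31.3%). A gene-start window was overlapped by 5.54% (4.92 to 6.23) of the regions. For regions missing only from IGF2BP3, IGF2BP1 and IGF2BP2 it was 4.47% (3.84 to 5.2), 5.71% (4.38 to 7.42) and 19.2%, and for the control list alone 3.9% (3.0 to 5.07). Inside genes of any kind lay 60.5% (59.1 to 61.9), against 67.8% (66.3 to 69.3), 61.8% (58.7 to 64.8) and 76.4% (72.9 to 79.5) for regions missing only from IGF2BP3, IGF2BP1 and IGF2BP2. Over protein-coding genes lay 43.6% (42.2 to 45.0), against 54.0%, 46.7% and 65.2%, while lncRNA genes alone accounted for 15.1% (14.1 to 16.1), against 11.4%, 12.9% and 9.13%.

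The nearest gene start was a median of 35.7 kb away, farther than the 28.8, 26.5 and 20.3 kb of regions missing only from IGF2BP3, IGF2BP1 and IGF2BP2 and the 8.46 kb of regions in all 4 lists. Over 50 kb from any protein-coding gene lay 32.2% (30.9 to 33.5), against 21.2% (20.0 to 22.6), 24.9% (22.2 to 27.7) and 15.6% (13.0 to 18.6). The local number of genes moved with the share as well: where no protein-coding gene lay within 500 kb, 9.72% (8.79 to 10.7) of regions were of this class, and where 20 or more did, 4.7% (4.31 to 5.12). Leaving out the stretch from 60 to 95 Mb of chromosome 13, which is described below and poor in genes, the median distance to a start was 33.6 kb and the share within 1 kb of a gene end 14.3% (13.3 to 15.4). The share with no protein-coding gene within 500 kb then went from 7.0% to 4.63% (4.06 to 5.28), nearer to the 4.08% of all regions outside the stretch. Outside it, regions missing only from IGF2BP1 had a higher share, 7.66% (6.13 to 9.54). Those missing only from IGF2BP3 or IGF2BP2 had lower ones, 3.49% (2.94 to 4.13) and 2.06% (1.21 to 3.5).

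**Figure D3:**
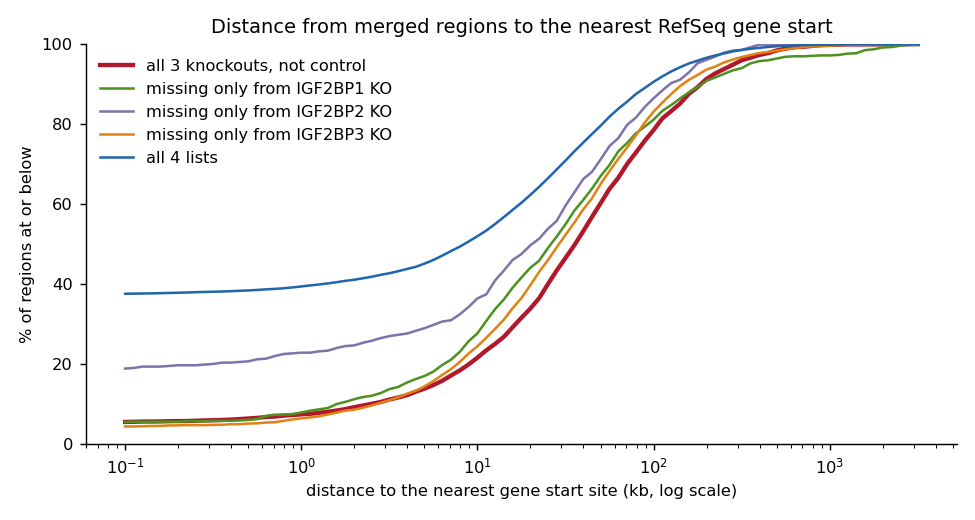
Cumulative percentage of regions by distance to the nearest RefSeq gene start (kb, log axis) for regions of all 3 knockouts and not the control (thick line), the 3 classes missing only from 1 knockout, and regions of all 4 lists. The thick line reaches 50% at 35.7 kb, to the right of the other lines at that height.

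The regions were unevenly spread over chromosomes. They were 13.2% (12.0 to 14.4) of the regions of chromosome 13, 11.3% (9.79 to 13.1) of those of chromosome 18 and 9.55% (7.84 to 11.6) of those of chromosome 21, against 6.88% overall. The lowest shares were 3.72% (3.01 to 4.59) on chromosome 19, 4.11% (3.61 to 4.67) on chromosome 2 and 4.25% (3.43 to 5.25) on chromosome 16. Against the most alike classes, the regions were 48.2% (47.2 to 49.1) of all 10224 regions held by exactly 3 lists, but 78.3% (74.5 to 81.6) of those on chromosome 13, 68.8% (62.6 to 74.4) of those on chromosome 18 and 28.3% (25.2 to 31.5) of those on chromosome 2.

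**Figure D4:**
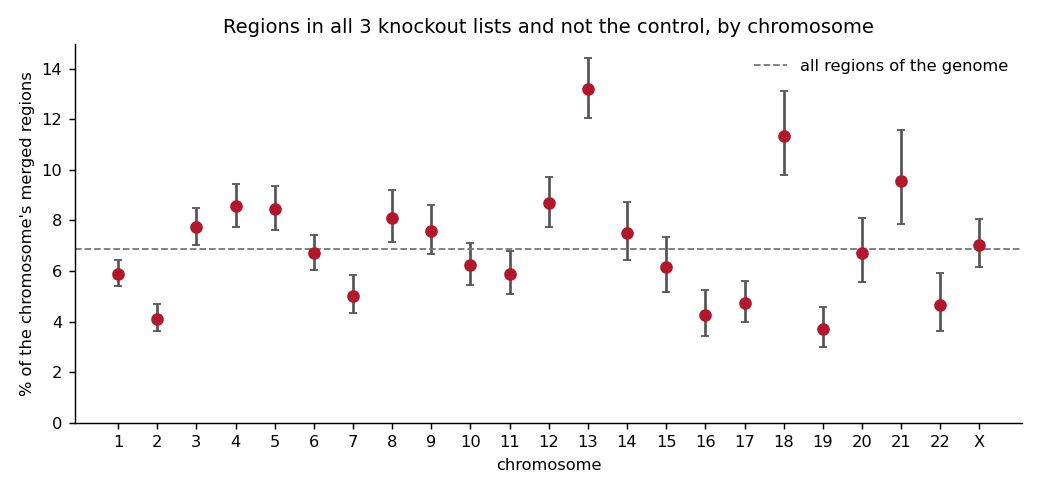
Percentage of each chromosome's merged regions that were in all 3 knockout lists and not the control, for chromosomes 1 to 22 and X, with 95% Wilson intervals. The dashed line is the share over all regions, 6.88%, and chromosomes 13 (13.2%) and 18 (11.3%) lie highest.

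Most of the excess on chromosome 13 lay in one stretch. From 60 to 95 Mb, 334 of 1939 regions (17.2%, 15.6 to 18.97) were of this class, against 80 of 1204 (6.64%, 5.37 to 8.19) on the rest of the chromosome and 6.59% outside chromosome 13. In the same stretch lay 13, 5 and 11 regions missing only from the IGF2BP1, IGF2BP2 and IGF2BP3 lists, so 334 of the 363 regions held by 3 lists there (92.0%, 88.8 to 94.4) lacked the control. The stretch was chosen with results of these lists known, and its share is a description. The other classes held by 3 lists all include the control, whose list had 380 peaks (0.97%) in the stretch. The knockout lists had 970, 1515 and 1221 peaks there (1.91, 2.51 and 2.77%), so it was not particular to this class. Chromosome 13 held 8.41% of this class. For regions without a control peak that only 2 knockout lists had to hold, it was 9.1% for IGF2BP2 and IGF2BP3. It was 8.05% for IGF2BP1 and IGF2BP3 and 6.38% for IGF2BP1 and IGF2BP2. With each list limited to its widest peaks, as many as the control list has, 10.1% (8.94 to 11.4) of the regions were on chromosome 13, against 2.26 to 2.4% of the classes missing only from 1 knockout.

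Windows of 5 Mb gave the same picture at a finer scale. Over 547 windows with at least 50 regions the median share was 6.49% (quartiles 4.28 and 8.73%). The highest were chromosome 13 from 90 to 95 Mb, with 52 of 235 regions (22.1%), and from 80 to 85 Mb, with 50 of 241 (20.7%). Chromosome 18 from 30 to 35 Mb had 49 of 246 (19.9%, 15.4 to 25.4) and from 20 to 25 Mb 27 of 147 (18.4%). Outside these chromosomes the top windows were chromosome 12 from 90 to 95 Mb (20 of 114, 17.5%) and chromosome 5 from 155 to 160 Mb (19 of 111, 17.1%). At the other end 6 windows had none, among them chromosome 7 from 25 to 30 Mb, with 0 of 133 regions, which allows up to 2.81% (Wilson), and chromosome 2 from 200 to 205 Mb, with 0 of 124 (up to 3.0%).

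Regions of this class often had another close by. Within 50 kb of another lay 1176 (23.9%, 22.7 to 25.1), against 18.4% (17.2 to 19.7) of the 3690 regions missing only from IGF2BP3, and a larger class is closer to itself by number alone. The nearest region of any kind was one of the same class for 8.49%, against 6.9% over all regions. The other classes held by 3 lists were alike in this. For regions missing only from IGF2BP3 it was 6.8%, against 5.2% over all regions. For those missing only from IGF2BP1 it was 2.17% against 1.46%, and for IGF2BP2 2.8% against 0.985%. Of 6 clusters of at least 5, 4 were on chromosome 13. The largest, chr13:91161929-91313788, had 6 among its 9 regions, with 1 control peak, over lncRNA genes including LINC00379, 84.8 kb from GPC5. The cluster in LMO7, a LIM domain protein gene (chr13:75686934-75761015), had 5 of 10 regions, and that over LINC00559 (chr13:90032184-90119254) had 5 of 6 with no control peak. The cluster at chr13:82626800-82758487 had 5 of 11, also with no control peak, 1119 kb from the nearest protein-coding gene, SLITRK1. In FOXP1, a forkhead factor gene, 5 of 10 regions of chr3:71168428-71263489 were of this class.

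Single long genes held many. PCDH9, a protocadherin adhesion gene of 928 kb on chromosome 13, held 18 among 90 regions, GPC6 14 among 58 and GPC5 13 among 67, the last 2 encoding glypicans, cell-surface heparan sulfate proteoglycans, all 3 within the 60 to 95 Mb stretch. In PCDH9 the control list had peaks in 30 regions and the knockout lists in 58, 74 and 59. Only 1 region in PCDH9 was held by 3 lists in another combination, and none in GPC6. CCDC178 on chromosome 18 held 9 among 26 regions, and the lncRNA gene OBI1-AS1 on chromosome 13 held 9 among 25. Within PCDH9 the narrowest of the 3 peaks ranged from 277 to 751 bp, and within GPC6 from 326 to 1208 bp.

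Of 1562 microRNA hairpins in the RefSeq table, 155 overlapped a region of any class and 1 a region of this class. That was MIR6720 (chr6:1390314-1390411, minus strand), inside chr6:1390258-1391315, which had peaks of 1058, 881 and 872 bp and a control peak 0.45 kb away. The region also overlapped FOXF2, a forkhead factor gene, and its divergent transcript, so the accessible stretch cannot be assigned to the microRNA. Its mature sequences, with the seed (bases 2 to 8) in capitals, are shown to identify it.
hsa-miR-6720-5p: uUCCAGCCcugguaggcgccgcg
hsa-miR-6720-3p: cGCGCCUGcaggaacugguaga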

How the data were processed

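ATAC-seq libraries of 4 groups of HEK293T cells were deposited by the authors as 4 peak lists, 1 per group, whose 3 columns give chromosome, start and end. Per the submitters' processing notes, fastp 0.24.1, BWA 0.7.17, MACS2 3.0.0, bedtools and GRCh38 were used. How libraries were combined, the peak threshold and any transposase offset are not given in the sources used here. These coordinates are not counts or scores, so no count model or test was run.

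Regions, distances and overlaps were computed with Python 3.11.15, numpy 2.4.6, pandas 2.3.3 and scipy 1.17.1, and the functions were checked on simulated intervals with known answers. Starts were converted to count from 1. Gene limits (59679 genes, 20037 protein-coding), gene-start windows and microRNAs come from RefSeq tables of GRCh38.p14. The start windows and hairpins do not cover every gene, and regions on chromosome 8 are not analysed here for start sites. Exons and introns were not determined. Shares carry 95% Wilson intervals, and medians carry intervals from order statistics.

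Members, gene lists and motifs were chosen with earlier results of these data known. Named were the 10 widest regions (by the narrowest of the 3 peaks) at least 1 kb from a control peak, the 10 widest at protein-coding gene ends, listed genes with a region at an end (or inside, where 5 or fewer), regions nearest the rule's edge, the 5 largest clusters, the 5 genes holding most and 6 start windows. Regions inside 6 genes of the insulin-like growth factor list and inside SALL4 and EYA1, the windows by 5 Mb, and the AP-1 contexts were added after their values were seen. Alternatives covered the control distance, merging, a common base, lists of equal length, peak width and pairs of knockouts.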

Additional observations from a re-analysis of the deposited data

How the results depend on the processing

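No paired analysis was possible because each group has 1 list with no values per library; for the same reason no replicate could be left out. Of 68 alternative values, 35 stayed within the main value's interval or within 1.5 times a main count. The number of regions, 4925, was 2295 with each list limited to its widest peaks (as many as in the control list), 2474 with the narrowest knockout peak at least 500 bp, and 10591 and 7432 with only the IGF2BP1 and IGF2BP2 or the IGF2BP2 and IGF2BP3 lists required. All 2295 overlapped one of the 4925, or 46.6% of the latter. That all of them did is nearly fixed by construction, since only the knockout lists were shortened and the control list stayed whole. The share within 1 kb of a gene end was 12.7% for the first pair and 12.6% for the second, 7.29% for regions touching a gene end and 30.1% within 5 kb. The share inside genes was 58.9% for IGF2BP2 and IGF2BP3. The share on chromosome 13 was 10.1% with the widest peaks, 9.98% with peaks of at least 500 bp, 6.38% with IGF2BP1 and IGF2BP2, and 1.74% without 60 to 95 Mb, which holds most of these regions on that chromosome.

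Median widths in the IGF2BP1, IGF2BP2 and IGF2BP3 lists were 882, 763 and 693 bp with the widest peaks and 850.5, 732.5 and 701 bp with peaks of at least 500 bp, by construction. They were 685 and 553 bp for the IGF2BP1 and IGF2BP2 pair, 713 bp in the IGF2BP1 list for its pair with IGF2BP3, and 580 and 551 bp for the IGF2BP2 and IGF2BP3 pair. Protein-coding genes with a region at an end numbered 169 with the widest peaks and 758 within 5 kb, against 326. The share within 50 kb of another, recomputed after seeing the data, was 13.7% with the widest peaks and 14.6% with peaks of at least 500 bp (fewer regions), 38.5%, 26.8% and 33.4% for the 3 pairs, 5.12% at 10 kb and 40.1% at 100 kb. With the widest peaks the share at gene ends was 13.9% (12.6 to 15.4), against 15.2% (13.6 to 16.8), 18.1% and 25.4% for regions missing only from IGF2BP3, IGF2BP1 and IGF2BP2. Inside genes lay 60.5%, against 69.5%, 59.7% and 68.3%, so the order against regions missing only from IGF2BP1 turned. Read depth is unknown, so a region listed without a control peak may be one that was not detectable at the control's depth.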
